A study of Mus musculus with 18 samples.

Results

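Mouse genes at 3 places in the genome are described here: Ide, Fgfbp3 and Btaf1, which lie close together on chromosome 19, Wdfy1 on chromosome 1 and Nnt on chromosome 13. They are 5 of the 55536 genes in the deposited count table and were matched by symbol. Ide, Fgfbp3 and Wdfy1 were chosen by their raw counts, which differ between wild-type and RasGRP1-deficient organoids although they lie far from Rasgrp1. Btaf1, which lies between Fgfbp3 and Ide, was listed with them, and Nnt was included as a gene known to differ between substrains of C57BL/6 mice. The members were thus selected on the counts of knockout against wild type in each medium, and that comparison is given as a description with no test. The comparisons between media were not used in the choice and were tested.

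The libraries came from mammary epithelial organoids, small 3-dimensional cultures grown in a matrigel basement membrane gel. The glands were from C57BL/6 mice aged 6 to 7 weeks, either wild type (WT) or RasGRP1-/- (KO), which lack a Ras guanine nucleotide exchange factor. Each genotype was kept for 5 days in 1 of 3 media that shared insulin, transferrin and selenium: 2.5 nM epidermal growth factor (EGF medium), 0.1 nM of the surrogate Wnt ligand NGS-Wnt with 8.3 nM Rspo2 (Wnt/R-spondin medium), or all 3 factors together (combined medium). Each of the 6 groups had 3 libraries, 1 from each of 3 batches, 18 in all. Some details that bear on these genes, namely the substrain within C57BL/6, whether WT and KO mice were littermates, the backcrossing of the knockout line, the number of mice behind each library and the deleted exons, were not given in the sources used here. Any other difference between the WT and KO mice falls along the same split of libraries and cannot be told apart from the loss of RasGRP1.

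Ide encodes insulin-degrading enzyme, a zinc metallopeptidase that cleaves insulin, amyloid beta and other small peptides. Fgfbp3 encodes a secreted protein that binds fibroblast growth factors and releases them from the extracellular matrix. Btaf1 encodes an ATPase that removes the TATA-binding protein TBP from DNA. Wdfy1 encodes a FYVE and WD-repeat protein of early endosomes that acts as an adaptor in signalling by Toll-like receptors TLR3 and TLR4. Nnt encodes nicotinamide nucleotide transhydrogenase of the inner mitochondrial membrane, which makes mitochondrial NADPH, and C57BL/6J mice carry a deletion inside it that C57BL/6N mice lack. A copy-number difference that takes in Ide and Fgfbp3 has been described among C57BL/6J mice. This is background, and neither DNA copy number nor genotype at these loci was measured here.

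On GRCm38, Fgfbp3 (ENSMUSG00000047632) lies at chr19:36917550-36919615 on the minus strand and Btaf1 (ENSMUSG00000040565) at chr19:36926079-37012752 on the plus strand. The gap between them is 6.46 kb, and they are transcribed away from each other. Ide (ENSMUSG00000056999) lies at chr19:37268743-37337852 on the minus strand, 256 kb beyond the end of Btaf1 and 349 kb from Fgfbp3. Cpeb3 and March5 stand between Btaf1 and Ide. Wdfy1 (ENSMUSG00000073643) lies at chr1:79702262-79776143 and Nnt (ENSMUSG00000025453) at chr13:119335448-119408997, both on the minus strand. Wdfy1 overlaps the start of Mrpl44 on the other strand, and it is not known from the sources used here whether the counting used strand.

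Fgfbp3 and Btaf1 face away from each other, so the stretches that run into their start sites are shown together. They are the RefSeq promoters on GRCm38.p6, from 250 bases before the start site to 20 bases from it, at chr19:36919580-36919849 (minus strand) and chr19:36925829-36926098 (plus strand). Capitals mark CTTCCG, a longer form of the GGAA (TTCC) core bound by ETS factors, searched on both strands as CTTCCG or CGGAAG. The shorter GGAA or TTCC was not searched alone, and unmarked copies stand in both stretches. Of the 5 genes, 3 had an entry in the promoter set used here, and that of Ide starts 3308 bases inside the annotated gene and is not shown.
Fgfbp3: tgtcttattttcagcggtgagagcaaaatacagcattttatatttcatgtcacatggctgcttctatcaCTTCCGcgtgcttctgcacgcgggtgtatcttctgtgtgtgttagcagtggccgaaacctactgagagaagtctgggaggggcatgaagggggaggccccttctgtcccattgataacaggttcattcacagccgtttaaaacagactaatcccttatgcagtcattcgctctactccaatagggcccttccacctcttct
Btaf1: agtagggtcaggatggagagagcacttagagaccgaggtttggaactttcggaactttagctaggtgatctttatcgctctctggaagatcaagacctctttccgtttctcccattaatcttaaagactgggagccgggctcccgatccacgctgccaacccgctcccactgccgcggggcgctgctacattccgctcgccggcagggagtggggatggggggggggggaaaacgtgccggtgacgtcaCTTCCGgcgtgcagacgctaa
Over the full 300-base windows, Fgfbp3 had 9 CpG pairs and 46.7% GC, and Btaf1 had 25 CpG pairs and 60% GC, against a median of 7 CpG pairs over 32851 promoters. CTTCCG stood once in each, beginning 181 bases before the Fgfbp3 start site and 1 base before that of Btaf1, and 16.9% of all promoters hold it on either strand. In Btaf1 the same letters are part of the longer ACTTCCGG, which 3.89% of all promoters hold on either strand (searched as ACTTCCGG or CCGGAAGT). These matches describe the letters and say nothing of binding.

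Library totals ran from 24290097 to 31269899 counts. Rasgrp1, the targeted gene, had 145 counts summed over the 9 WT libraries and 25 over the 9 KO libraries, and 0 in 5 of the 9 KO libraries. Single libraries overlapped, with 6 to 28 counts in WT and 0 to 9 in KO. In KO all libraries of batch 1 were at 0, and those of batch 3 were at 0.137 to 0.297 CPM. CPM are counts scaled to a common effective library size. The organoids carried their labelled cell type. The 8 epithelial markers (among them Epcam, Krt8 and Krt14) were counted in every library. They summed to 6985 to 11326 CPM in WT and 6061 to 11156 in KO. Markers of other cells were also present. The 4 fibroblast markers summed to 259 to 1919 CPM in WT and 312 to 1390 in KO, the 3 endothelial markers to 56.9 to 328 and 109 to 438, and the 3 adipocyte markers to at most 360 and 348. The 3 leukocyte markers summed to 3.21 to 16.6 CPM in WT and 3.46 to 8.57 in KO, with Cd3e at 0 in 17 libraries. These ranges overlap between the genotypes, and their part in the values below was not tested. In these bulk libraries, fewer cells that express a gene and less RNA per cell cannot be told apart.

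Per kilobase of exon, Ide was the most abundant of the 5 genes and Nnt was barely detected. Mean RPKM (CPM divided by the exon length in kilobases) was 36.0 ± 2.41 in WT and 16.3 ± 1.37 in KO for Ide (SD, n = 9 each), and over all libraries Ide stood at percentile 88.0 of the 17092 genes tested. Btaf1 was at 7.81 ± 1.31 RPKM in WT and 5.98 ± 1.63 in KO, and Wdfy1 at 7.47 ± 1.98 and 2.43 ± 0.636. These neighbours in the order were within each other's spread in WT, whereas in KO every Btaf1 library stood above every Wdfy1 library. Fgfbp3 was at 3.38 ± 0.866 RPKM in WT and 1.21 ± 0.398 in KO, at percentile 40.4, and its libraries overlapped those of Wdfy1 in both genotypes. Nnt was at 0.0539 ± 0.0165 RPKM in WT and 0.0415 ± 0.0293 in KO, at percentile 1.85.

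Ide was lower in KO organoids in all 3 media, with WT 2.21-fold above KO over the media. In EGF medium its counts were 7830, 7135 and 7947 in WT (batches 1, 2 and 3) and 2955, 2584 and 3273 in KO. In combined medium they were 8002, 7807 and 7591 in WT and 3478, 3098 and 3858 in KO. In Wnt/R-spondin medium they were 9155, 8016 and 8932 in WT and 4056, 2822 and 4036 in KO. The lowest WT library (250 CPM) stood above the highest KO library (141 CPM), so the genotypes did not overlap in any medium. As means, Ide was at 270 ± 18.1 CPM in WT and 123 ± 10.3 in KO (SD, n = 9 each). The difference of KO minus WT on the log2 scale was -1.14 ± 0.04 over the media (SE, edgeR), -1.16 ± 0.06 in EGF medium, -1.10 ± 0.06 in combined medium and -1.16 ± 0.06 in Wnt/R-spondin medium.

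The ratio of WT to KO for Ide was narrow. Within each of the 9 pairs of libraries that share a batch and a medium it ran from 2.02 to 2.38, with a median of 2.22. By batch, the ratio of means was 2.10, 2.30 and 2.23 in batches 1, 2 and 3. The difference in KO minus WT between 2 media was at most 0.06 ± 0.09 on the log2 scale, for combined against EGF medium.

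Fgfbp3 was also lower in KO in every medium, with WT 2.76-fold above KO over the media, on far fewer counts. In EGF medium it had 145, 156 and 211 counts in WT and 34, 36 and 89 in KO. In combined medium it had 180, 119 and 170 in WT and 76, 61 and 43 in KO. In Wnt/R-spondin medium it had 226, 135 and 267 in WT and 60, 40 and 96 in KO. The lowest WT library was at 3.91 CPM and the highest KO library at 3.17 CPM, so again the genotypes did not overlap. Means were 6.00 ± 1.53 CPM in WT and 2.15 ± 0.706 in KO (SD, n = 9 each), and KO minus WT was -1.46 ± 0.18 on the log2 scale over the media. It was -1.55 ± 0.32 in EGF medium, -1.24 ± 0.31 in combined medium and -1.60 ± 0.31 in Wnt/R-spondin medium.

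The matched ratios of Fgfbp3 ran from 1.74 to 4.34 with a median of 2.83, a wider range than for Ide. By batch the ratio of means was 2.88, 2.58 and 2.87. In combined medium the order of batches turned between genotypes: batch 3 was highest in WT, at 6.14 CPM, and lowest in KO, at 1.41 CPM. Without that KO library the difference over the media was -1.34 on the log2 scale.

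Btaf1, which begins next to Fgfbp3, was lower in KO by a smaller amount, and its levels followed the batch. In EGF medium it was at 80.3, 88.4 and 65.3 CPM in WT (batches 1, 2 and 3) and 60.0, 76.8 and 43.1 CPM in KO. In combined medium it was at 72.1, 97.2 and 64.2 CPM in WT and 57.8, 71.6 and 37.1 CPM in KO. In Wnt/R-spondin medium it was at 77.4, 103 and 73.3 CPM in WT and 60.6, 91.4 and 53.6 CPM in KO. Batch 2 was highest and batch 3 lowest in all 6 groups, and the genotypes overlapped, with the lowest WT library at 64.2 CPM and the highest KO library at 91.4 CPM. Within a batch and medium, WT was above KO in 9 of 9 pairs, by 1.12 to 1.73 with a median ratio of 1.34. KO minus WT was -0.41 ± 0.06 on the log2 scale over the media (SE), and the ratio of means was 1.29, 1.20 and 1.52 in batches 1, 2 and 3. Batch 3 had the largest ratio in each medium. The fitted batch effect does not hold this, so the SE over the media may be too small.

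Wdfy1 was lower in KO in every medium, with WT 3.07-fold above KO over the media. In EGF medium its counts were 1925, 1569 and 1098 in WT and 439, 478 and 370 in KO. In combined medium they were 2084, 1582 and 903 in WT and 385, 534 and 264 in KO. In Wnt/R-spondin medium they were 1555, 1349 and 964 in WT and 438, 491 and 381 in KO. The lowest WT library was at 32.0 CPM and the highest KO library at 20.5 CPM, with no overlap. Means were 48.5 ± 12.9 CPM in WT and 15.8 ± 4.13 in KO (SD, n = 9 each). KO minus WT was -1.62 ± 0.09 on the log2 scale over the media, -1.59 ± 0.15 in EGF medium, -1.85 ± 0.15 in combined medium and -1.42 ± 0.15 in Wnt/R-spondin medium.

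Wdfy1 also varied between batches, but not in the same order in both genotypes. In WT, batch 1 was highest in each medium, with a mean of 60.6 ± 8.42 CPM against 51.2 ± 4.29 in batch 2 and 33.5 ± 2.13 in batch 3 (SD, n = 3 media each). In KO, batch 2 was highest in each medium, with a mean of 20.1 ± 0.416 CPM against 15.8 ± 2.09 in batch 1 and 11.3 ± 2.29 in batch 3. The ratio of WT to KO was accordingly 3.84, 2.54 and 2.96 in batches 1, 2 and 3. Over the 9 matched pairs it ran from 2.30 to 4.75 with a median of 2.83. The difference in KO minus WT between combined and Wnt/R-spondin medium was -0.42 ± 0.21 on the log2 scale. The fitted batch effect was the same for both genotypes and does not hold the change of batch order between them. The SE over the media may thus be too small.

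**Figure D1:**
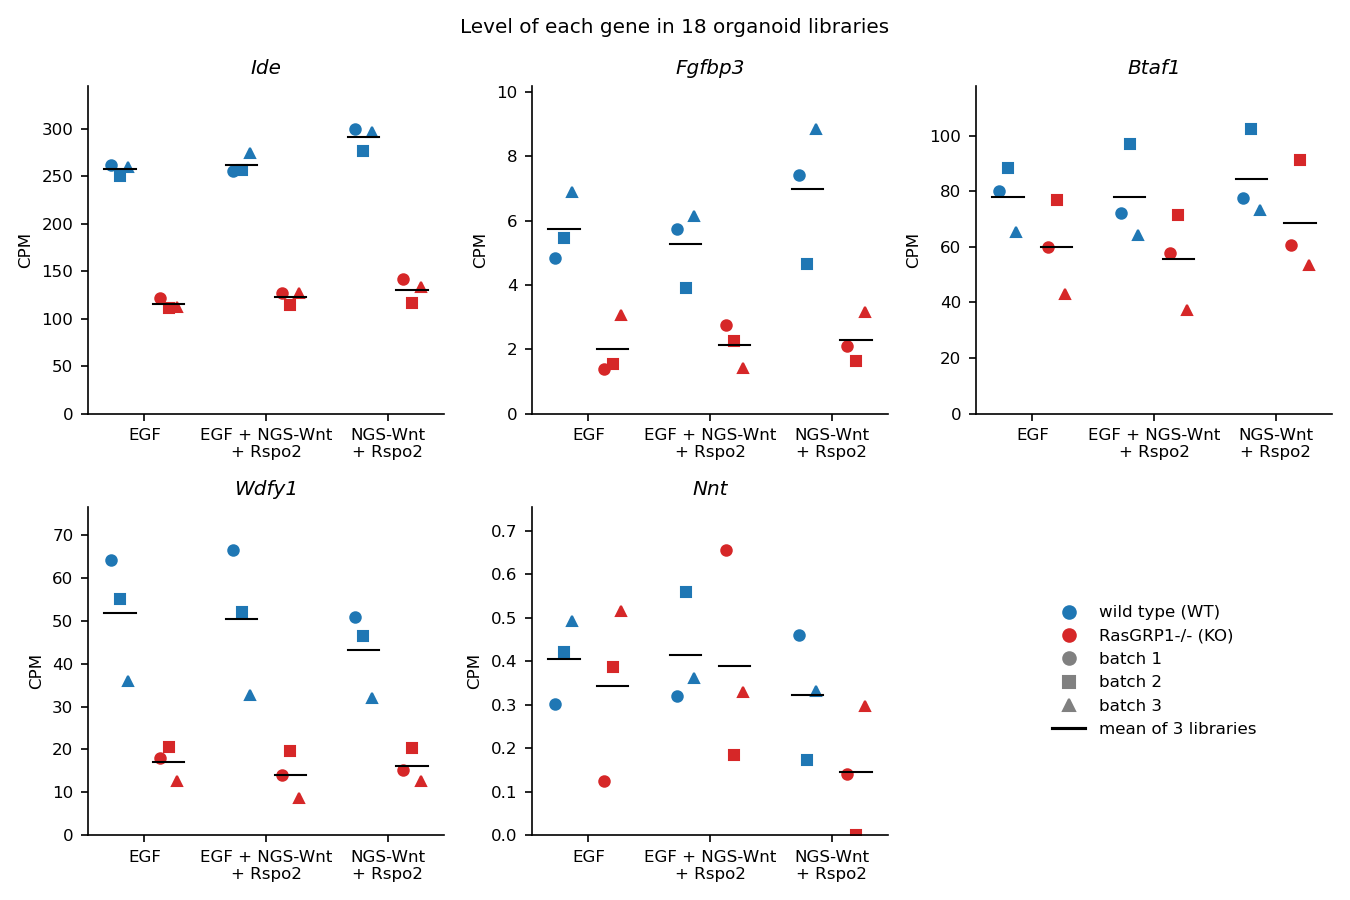
CPM of each gene (vertical axes, linear from 0) in the 3 media, with 1 point per library, blue for WT and red for KO, marker shape for batch and a black line at the mean of 3 libraries. For Ide, Fgfbp3 and Wdfy1 all 9 blue points lie above all 9 red points, while for Btaf1 and Nnt the genotypes overlap.

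Nnt had 175 counts in all 18 libraries together, 102 in WT and 73 in KO. In EGF medium the counts were 9, 12 and 15 in WT and 3, 9 and 15 in KO. In combined medium they were 10, 17 and 10 in WT and 18, 5 and 10 in KO. In Wnt/R-spondin medium they were 14, 5 and 10 in WT and 4, 0 and 9 in KO. The genotypes overlapped and the gene was near the detection limit in both, with 5 to 17 counts a library in WT and 0 to 18 in KO. The 2 libraries at 3 counts or fewer, where a count of 0 allows up to 3, were of KO. Means were 0.380 ± 0.116 CPM in WT and 0.292 ± 0.206 in KO (SD, n = 9 each). KO minus WT was -0.54 ± 0.52 on the log2 scale over the media, with a 95% interval from -1.64 to 0.56, so a difference of the size seen for Ide was not excluded at this depth. In 2 media the sign of Nnt depended on which library or batch was left out. Values ran from -0.65 to 0.21 in EGF medium and from -0.99 to 0.57 in combined medium, where the extremes were without batch 1 and without batch 2. The sign stayed negative over the media, from -0.92 to -0.23, and in Wnt/R-spondin medium, from -2.11 to -0.64.

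Few genes separated the genotypes in the way Ide, Fgfbp3 and Wdfy1 did. All 9 WT libraries were above all 9 KO libraries for 7 of 17092 genes, 0.041%, and these 3 were among the 7. The other 4 were Eif3j1, Mfap1b and Pla2g4b on chromosome 2 and Pisd-ps1 on chromosome 11, named after their values were seen. The opposite order held for 11 genes, 0.0644%. Within a single medium, 3 libraries against 3, the same 3 members did not overlap in each medium, where 2.45%, 2.16% and 2.12% of genes had all WT above all KO libraries in EGF, combined and Wnt/R-spondin medium. Over the media, 0.339% of genes were called between the genotypes at an adjusted p under 0.05 (edgeR's quasi-likelihood F-test with Benjamini-Hochberg adjustment), 39 higher and 19 lower in KO. Nothing is read from these shares for the 3 members, since this contrast chose them.

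**Figure D2:**
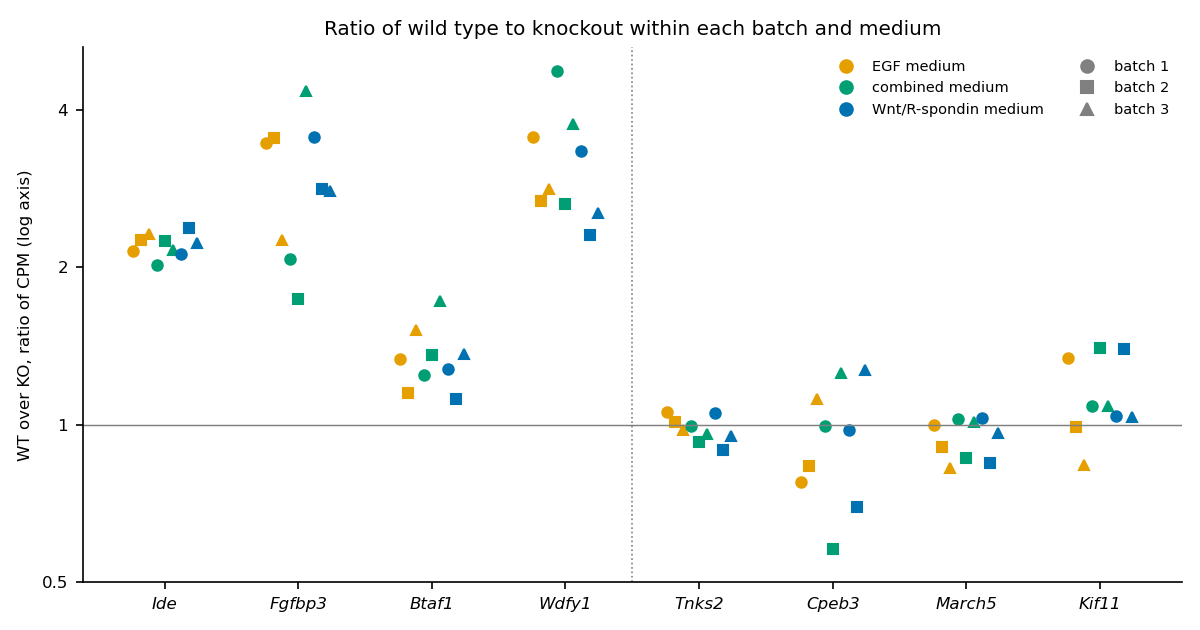
Ratio of CPM in WT to CPM in KO (vertical axis, log scale) for 4 of the genes and, right of the dotted line, the nearest tested genes around those on chromosome 19, with 1 point for each of the 9 combinations of batch (shape) and medium (colour; combined is EGF with NGS-Wnt and Rspo2, Wnt/R-spondin is without EGF). All points of Ide, Fgfbp3, Btaf1 and Wdfy1 lie above 1, those of Ide between 2.02 and 2.38, and those of the other 4 genes lie on both sides of 1.

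The genes beside the members were then tested, since they were taken by position alone. Within 1 Mb of the chromosome 19 genes the table lists 38 other genes, of which 18 passed the filter on low counts and 0 were called between genotypes over the media by edgeR. At an unadjusted p under 0.05 there was 1, Ankrd1, a muscle ankyrin repeat gene named after its value was seen, at log2 0.90 ± 0.27 with an edgeR adjusted p of 0.243. The median log2 of the 18 was 0.07, against 0.00 over all genes tested. DESeq2 also called 0 of them, beside 1.11% of all genes.

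March5 and Cpeb3, which lie between Btaf1 and Ide and start close together, did not pass the test. March5 encodes a ubiquitin ligase of the mitochondrial outer membrane and ranged from 47.1 to 64.0 CPM over the WT libraries and from 45.9 to 73.3 over those of KO (log2 0.09 ± 0.06, edgeR adjusted p = 0.578). Its matched ratios of WT to KO ran from 0.828 to 1.03, with WT higher in 4 of 9 pairs. Cpeb3 encodes an RNA-binding regulator of translation and ranged from 6.01 to 11.5 CPM over the WT libraries and from 7.04 to 11.8 over those of KO (log2 0.12 ± 0.13, edgeR adjusted p = 0.808). Its ratios ran from 0.579 to 1.27, with WT higher in 3 of 9 pairs. The genes with lower values in KO are thus not a continuous run along the chromosome, since these 2 lie between them with matched ratios on both sides of 1.

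The outer neighbours did not pass the test either. Tnks2, the poly-ADP-ribosylating enzyme tankyrase 2, is the nearest tested gene on the far side of Fgfbp3 and was at log2 0.03 ± 0.03 (edgeR adjusted p = 0.819). Kif11, a mitotic kinesin, is the nearest beyond Ide and was at -0.18 ± 0.11 (0.575).

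Around Wdfy1, 34 other genes are listed within 1 Mb, 8 passed the filter and 0 were called, with a median log2 of 0.05. Mrpl44, a mitochondrial ribosomal protein gene whose start overlaps that of Wdfy1 on the other strand, had 13698 counts in all and was at log2 0.05 ± 0.07 (edgeR adjusted p = 0.834). On the other side, Ap1s3, a subunit of a clathrin adaptor, was at 0.05 ± 0.13 (0.922). Around Nnt, 55 other genes are listed, 10 passed the filter and 0 were called, with a median of -0.01. The 1 with an unadjusted p under 0.05 was 3110070M22Rik, named after its value was seen, at log2 -0.94 ± 0.42 (edgeR adjusted p = 0.428). The nearest on each side were Paip1, which encodes a partner of the poly(A)-binding protein, at -0.03 ± 0.04, and Mrps30, another mitochondrial ribosomal protein gene, at 0.03 ± 0.05 (edgeR adjusted p = 0.851 for both). Over all 3 windows, 0 of 36 tested neighbours were called and 2 had an unadjusted p under 0.05, against 58 calls (0.339%) and 1842 (10.8%) among all 17092 genes.

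**Figure D3:**
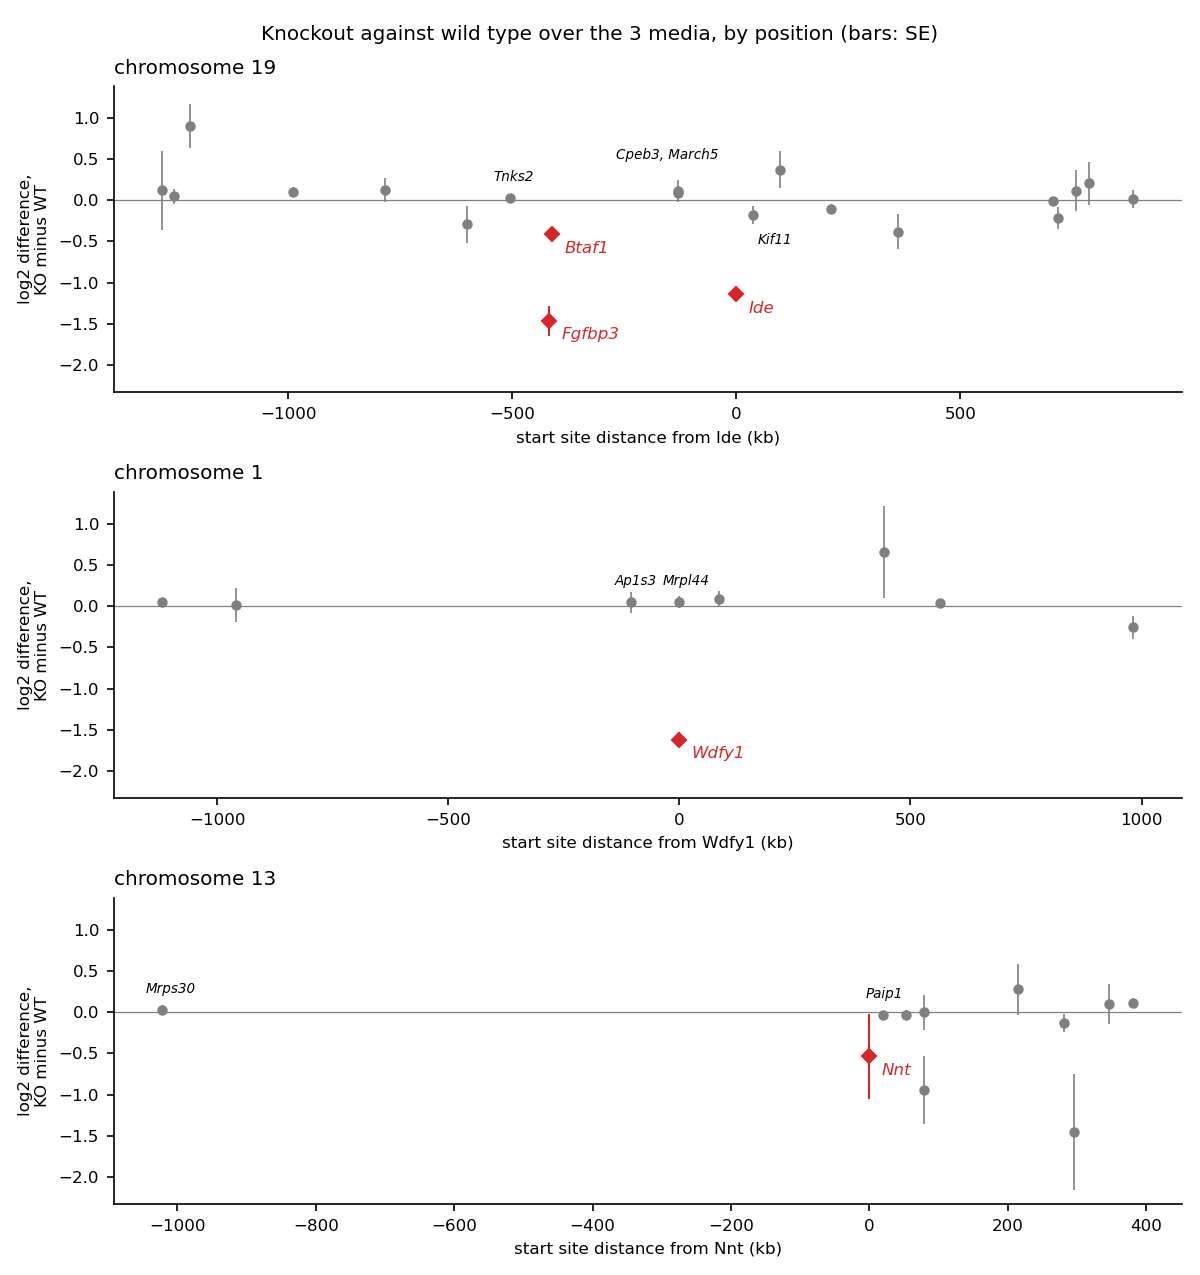
Difference of KO minus WT over the 3 media on the log2 scale (vertical axis, bars are SE) for every tested gene within 1 Mb, against the distance of its start site in kb from that of Ide, Wdfy1 or Nnt. Red diamonds are the 5 genes of interest and grey points their neighbours, of which 0 of 36 were called, including March5 and Cpeb3 between Btaf1 and Ide.

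The differences of the 5 genes between media did not enter their choice and were tested. Over 3 pairs of media in each genotype there were 30 tests, of which 0 were called by edgeR and 4 had an unadjusted p under 0.05. By the same test 10.7% to 15.6% of all genes were called, according to the pair and genotype, and 22.5% to 28.2% had an unadjusted p under 0.05. DESeq2 called 3 of the 30, beside 14.6% to 20.3% of all genes, and each of the 3 was lower in a medium with EGF than in Wnt/R-spondin medium.

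Ide was highest in Wnt/R-spondin medium in both genotypes. In WT it was at 291 ± 12.6 CPM there, 262 ± 10.4 in combined medium and 257 ± 6.21 in EGF medium (SD, n = 3 each), and every WT library in Wnt/R-spondin medium was above every other WT library. The last 2 media differed by less than their spread. In KO it was at 130 ± 12.8, 123 ± 7.18 and 115 ± 5.84 CPM in the same order, and the libraries overlapped. EGF minus Wnt/R-spondin medium was -0.18 ± 0.06 on the log2 scale in WT and -0.18 ± 0.06 in KO, with edgeR adjusted p of 0.0573 and 0.0653, beside 15.4% and 13.5% of genes called. With DESeq2 the adjusted p was 0.0188 and 0.0218, beside 19.4% and 17.9% of genes called, and in edgeR both passed the threshold without KO replicate 2 in Wnt/R-spondin medium (adjusted p = 0.0441 and 0.031). Combined minus Wnt/R-spondin medium was -0.15 ± 0.06 in WT (edgeR adjusted p = 0.136) and -0.09 ± 0.06 in KO (0.423).

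With both genotypes averaged in the same fit, a comparison added after the data were seen, Ide was lower in EGF than in Wnt/R-spondin medium by log2 -0.18 ± 0.04 (edgeR adjusted p = 0.00488). By that test 25.5% of all genes were called, and over the 3 pairs of media 2 of 15 member tests were called beside 22.9% to 27.9% of all genes. In the authors' deposited table, 4 of the 30 comparisons of members between media have an adjusted p under 0.05, beside 13.7% to 20.5% of all genes with an adjusted p. In the authors' deposited table these are Ide in EGF against Wnt/R-spondin medium in WT (log2 -0.18, adjusted p = 0.0131) and in KO (0.016), Ide in combined against Wnt/R-spondin medium in WT (log2 -0.16, 0.0473), and Btaf1 in combined against Wnt/R-spondin medium in KO (log2 -0.32, 0.0399).

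Btaf1 had its lowest mean in combined medium in KO. Its KO means were 55.5 ± 17.3 CPM in combined, 60.0 ± 16.9 in EGF and 68.5 ± 20.1 in Wnt/R-spondin medium (SD, n = 3 each), with overlap that follows the batches. In the fit with the batch, combined minus Wnt/R-spondin medium was -0.31 ± 0.10 on the log2 scale in KO (edgeR adjusted p = 0.0538, beside 12.7% of genes called) and -0.13 ± 0.10 in WT (0.537). DESeq2 gave an adjusted p of 0.0409 in KO, beside 16.1% of genes called. In edgeR the adjusted p fell below the threshold on leaving out replicate 1 of KO in combined medium (0.0421), replicate 1 of KO in Wnt/R-spondin medium (0.048), replicate 2 of WT in EGF medium (0.0437) or replicate 3 of WT in Wnt/R-spondin medium (0.0476). Averaged over the genotypes the difference was -0.22 ± 0.07 (edgeR adjusted p = 0.0348, beside 22.9% of genes called).

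Fgfbp3, Wdfy1 and Nnt had no medium difference at an unadjusted p under 0.05 in edgeR. Fgfbp3 was at 6.98 ± 2.13 CPM in Wnt/R-spondin, 5.74 ± 1.06 in EGF and 5.27 ± 1.19 in combined medium in WT, and at 2.30 ± 0.784, 2.00 ± 0.918 and 2.14 ± 0.682 in KO (SD, n = 3 each), all neighbours in the order lying within their spread. Its log2 differences ran from -0.39 to 0.17, and the widest 95% interval, for combined minus EGF medium in KO, ran from -0.52 to 0.86. Wdfy1 was at 51.8 ± 14.5 CPM in EGF, 50.4 ± 17.0 in combined and 43.2 ± 9.94 in Wnt/R-spondin medium in WT, again within the spread. In KO it was at 17.1 ± 3.99 CPM in EGF and 14.1 ± 5.51 in combined medium, with the mean in Wnt/R-spondin medium between them. Its smallest adjusted p was 0.216, for combined minus EGF medium in KO at log2 -0.31 ± 0.15. Nnt ranged from log2 0.09 to 1.46 between media, with a smallest adjusted p of 0.375 at a depth of 0 to 18 counts a library.

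**Figure D4:**
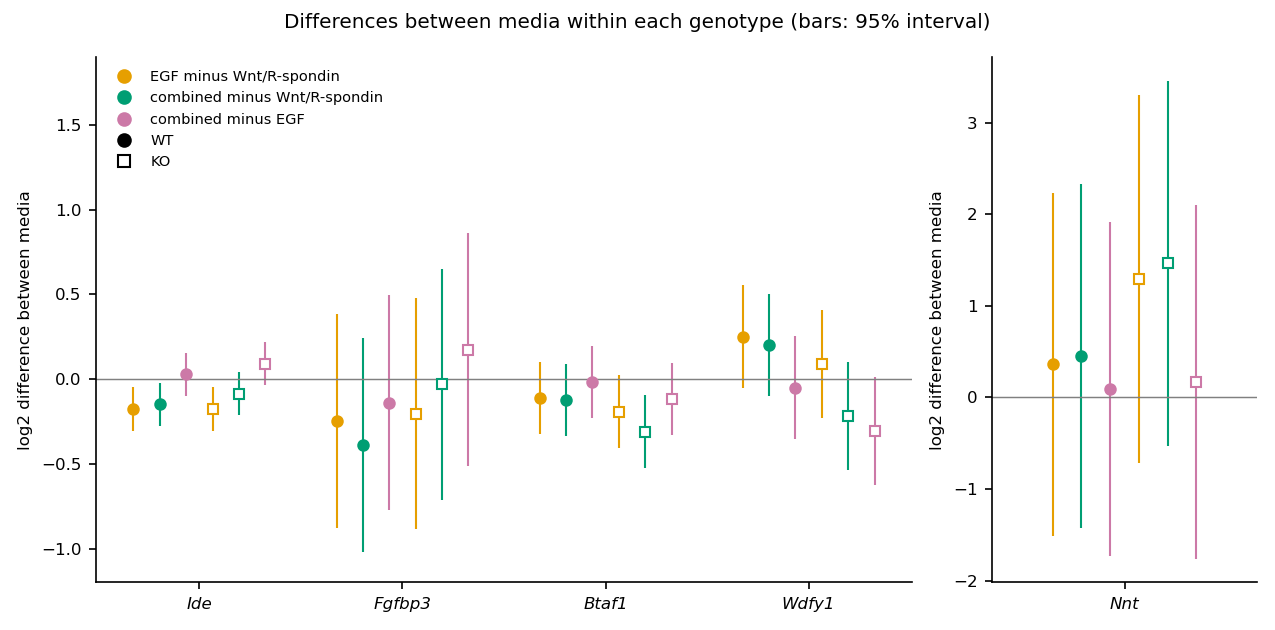
Log2 difference between media (vertical axes, bars are 95% intervals) for each gene, with filled circles for WT and open squares for KO, combined meaning EGF with NGS-Wnt and Rspo2. Most intervals include 0, the exceptions being Ide in 3 comparisons and Btaf1 in 1, and the right-hand panel for Nnt has a wider axis.

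Genes of the pathways around the 5 members were tested between genotypes over the media. The table holds 70 of the listed genes. Of these, 62 passed the filter on low counts, 0 were called by edgeR (0.339% of all genes), 0 by DESeq2 (1.11% of all genes), and 5 had an unadjusted p under 0.05 (10.8% of all genes). These 5, named after their values were seen, were Tlr3 (log2 0.26 ± 0.08, edgeR adjusted p = 0.294), Fgfr3 (0.31 ± 0.12, 0.349), Tbp (-0.17 ± 0.06, 0.349), Traf3 (-0.11 ± 0.05, 0.432) and Irf3 (-0.13 ± 0.06, 0.452). The median log2 of the 62 was -0.02, against 0.00 over all genes tested.

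Among 10 tested relatives of Ide and other peptidases that degrade insulin or amyloid beta, the median was 0.01. The 2 with the most counts were Ctsd, the lysosomal protease cathepsin D, at log2 0.08 ± 0.04 (edgeR adjusted p = 0.524) and Ece1, endothelin-converting enzyme, at 0.09 ± 0.05 (0.555). Of 5 receptors and substrates of insulin and insulin-like growth factors, with a median of 0.03, Igf2r was at -0.02 ± 0.05 (0.919). Irs2, an insulin receptor substrate, was at 110 ± 51.3 CPM in WT and 188 ± 125 in KO (log2 0.57 ± 0.29, edgeR adjusted p = 0.514), and without batch 2 the value was -0.02.

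Of 9 fibroblast growth factor genes and partners of Fgfbp3, the median was 0.05, with the receptor Fgfr1 at 0.11 ± 0.07 (edgeR adjusted p = 0.55) and the decoy-like receptor Fgfrl1 at 0.05 ± 0.07 (0.839). Of 11 genes of TBP and its regulators, in which Btaf1 acts, the median was -0.05. Drap1, part of the repressor NC2, was at 0.07 ± 0.04 (edgeR adjusted p = 0.524) and Taf1, the largest TFIID subunit, at -0.05 ± 0.05 (0.739). Of 8 genes of the WDFY family and of the TLR3 and TLR4 adaptor pathway, the median was -0.06 and 3 had an unadjusted p under 0.05, beside 10.8% of all genes. Wdfy3, an autophagy adaptor, was at -0.07 ± 0.07 (edgeR adjusted p = 0.742) and the signalling adaptor Traf3 at -0.11 ± 0.05 (0.432).

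Of 16 genes of mitochondrial NADPH and peroxide handling, the processes Nnt serves, the median was -0.03 and 0 had an unadjusted p under 0.05. Gpx1, a glutathione peroxidase, was at log2 0.02 ± 0.04 (edgeR adjusted p = 0.895) and Sod2, mitochondrial superoxide dismutase, at 0.03 ± 0.04 (0.819). Of 8 other genes that have been described to differ between C57BL/6 substrains, only 3 passed the filter on low counts, and 0 were called. Mean levels of the 3 were at most 2.43 CPM, with SE of 0.29 to 0.54 on the log2 scale. With so few counts, 0 calls cannot tell whether the substrain differs. Mmrn1, a platelet and endothelial protein gene, was at 0.09 ± 0.29 (0.946) and Cyfip2, a regulator of actin, at -0.09 ± 0.29 (0.947). Crb1 and Entpd4 had 0 counts in every library, as did Entpd4b, which is nearly identical to Entpd4. The counts of Entpd4 and Entpd4b are thus uncertain and do not show that these genes were silent.

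The genes whose levels followed those of each of Ide, Fgfbp3, Wdfy1 and Nnt most closely over the 18 libraries included some on chromosome 2, where Rasgrp1 lies. Likeness was Pearson's r of log2 CPM over both genotypes, so it holds the difference between genotypes, and the libraries share batches. For Ide the closest were Mfap1b (r = 0.93), Eif3j1 (0.91), Pla2g4b (0.89), Pisd-ps1 (0.86) and AC226737.1 (0.84). For Fgfbp3 they were Eif3j1 (0.82), Mfap1b (0.81), Rasgrp1 itself (0.79), Spg11 (0.78) and Chp1 (0.76). For Wdfy1 they were Eif3j1 (0.91), Pla2g4b (0.87), Mfap1b (0.79), Ercc5 (0.74) and Gm26534 (0.73).
For Nnt, where counts are few, Trub2 (0.81) and Prss53 (0.81) came first, followed by Rapgef4os3 (0.81), 1700007L15Rik (0.80) and Gm43679 (0.80), and none of these is among the 5 named for another member. Mfap1b, Eif3j1, Pla2g4b, Spg11 and Chp1 lie on chromosome 2 within chr2:119547697-122118386, and Rasgrp1 lies at chr2:117279993-117343001. Trub2 (chr2:29761224-29788502) and Rapgef4os3 (chr2:72244965-72248975), named for Nnt, lie on the same chromosome but far from Rasgrp1. The share of all tested genes on chromosome 2 was not counted. Mfap1b was at 10.2 CPM in WT and 5.97 in KO, and Eif3j1 at 3.80 and 0.516. Pla2g4b was at 0.602 CPM in WT and 0.00365 in KO, and AC226737.1 at 0.292 and 0.0324. Both were near the detection limit in KO, so their r holds little beyond the difference between genotypes. Mfap1b and Eif3j1 each have a near-identical copy in the genome, so the counts of each are uncertain.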

How the data were processed

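RNA from 18 organoid cultures was sequenced and counted per gene. The deposited read counts are whole numbers per Ensembl gene. STAR, DESeq2 and GRCm38 are named per the submitters' processing notes, and their versions, the annotation release and the strand setting were not given in the sources used here. A second deposited table by the authors holds, per the file headers, normalized signal and variance-stabilized log2 values, not used in any test here, and log2 fold changes with adjusted p-values for 9 comparisons, of which values between media are quoted. Per the file headers, the authors' model held the batch.

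Members and gene lists were chosen with earlier results of these data known. TMM scaling was done in edgeR 4.0.16 (R 4.3.3). Genes were filtered with filterByExpr (minimum count 10, minimum total 15; 17092 of 55536 genes kept), and 1 model was fitted over all 18 libraries with 1 mean per group and the batch as a block. The robust quasi-likelihood F-test was two-sided, with Benjamini-Hochberg adjustment per contrast and calls at an adjusted p under 0.05. The model held no genotype difference that varies between batches. SE and p-values between genotypes over the media may therefore be too small, for members, neighbours, listed genes and all genes alike. RPKM used GENCODE M21 exon lengths. An exact permutation test of 3 libraries against 3 cannot go below p = 0.1. The labels give each library a batch equal to its replicate number, and deviations of same-batch libraries from their group means correlated at r = 0.175 to 0.453 over 45 pairs of libraries from different groups. The submitters call the replicates biological, but no source used here says that they came from separate animals, so p-values measure the spread between these cultures. No pair of replicates agreed within counting noise.

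Named genes were the members, the nearest tested neighbour on each side of each locus (within 1 Mb) and any called neighbour, per list the called genes or else the 2 with the highest mean CPM, and the 5 genes most like Ide, Fgfbp3, Wdfy1 and Nnt. Settings tried were no batch block, DESeq2's size factors, DESeq2 1.42.0, no filter, only the compared groups, and leaving out each library or batch.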

Additional observations from a re-analysis of the deposited data

How the results depend on the processing

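The differences of KO minus WT for Ide, Fgfbp3, Btaf1 and Wdfy1 kept their sign in every setting run. Over the media, Ide ranged from -1.18 to -1.12 on the log2 scale, Btaf1 from -0.49 to -0.32 and Wdfy1 from -1.77 to -1.46, and Fgfbp3 ranged from -1.56 to -1.34 on leaving out a library or batch. Between media, the members had 0 calls of 30 in edgeR, 3 with DESeq2, 2 with both genotypes averaged and 0 to 2 on leaving out a library or batch. No call was made for neighbours or listed genes in any setting. Without the replicate block, the genes called between genotypes over the media went from 58 to 22, and the members kept 0 calls between media. In that setting KO minus WT over the media was -0.39 ± 0.15 for Btaf1 and -1.62 ± 0.19 for Wdfy1. With the block the SE was 0.06 and 0.09. With DESeq2 there were 190 calls, and leaving out a library or batch gave 19 to 90, the extremes being without batch 3 and without batch 1. The cause was not tested. Small uncalled differences changed sign in some settings. A fit of only the compared groups gave no value over the media. Nnt kept its sign over the media but not in EGF or combined medium, and its low counts limit what its values can show.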
